A study of Mus musculus with 20 samples.

Results

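The cytosolic ribosomal protein genes were followed across 4 treatments of a mouse tumor. They were taken as the protein-coding genes whose symbol is Rpl or Rps with a number (and an optional a or x), together with Rplp0, Rplp1, Rplp2 and Rpsa, that had a mean of at least 50 reads over all tumors. Of 35226 genes in the count table, 76 had such a symbol and 75 passed the limit, 45 of the large (60S) and 30 of the small (40S) ribosomal subunit. The limit left out Rpl38 (mean 26.8 reads), and the members just above it were Rps27 (54.1), Rpl24 (54.3) and Rps29 (59.2). All 75 members also passed the expression filter and stood among the 16665 genes tested.

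The tissue was LLC1 tumor, grown from a mouse Lewis lung carcinoma cell line injected under the skin of male C57BL6/J mice. The 4 groups of 5 tumors were treated with vehicle, with cisplatin (a platinum drug that cross-links DNA), with KW6002 (istradefylline, which blocks adenosine receptors), or with both drugs, called cotreatment here. All tumors thus shared 1 transplanted cell line and 1 host strain, and the labels name no engineered allele. Each tumor gave 1 poly(A)-selected library, with 28.4 to 41 M reads counted in genes. Shares of all reads given below are shares of these counted reads. Separate tumors of a group are the replicates, so P values measure the spread between these tumors. The keratins Krt8 and Krt18 had 129 ± 8.38 and 273 ± 10.8 CPM (counts scaled to a common library size) in vehicle tumors (SD, n = 5), whereas Epcam, an epithelial adhesion molecule, had 0.0335 ± 0.0432 CPM and Sftpc, an alveolar marker, had no read in that group. In tumor tissue, fewer cells of a type and less RNA per cell cannot be told apart.

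Ribosomal proteins are made in near equal amounts and are assembled with ribosomal RNA in the nucleolus. Their mRNAs start with a terminal oligopyrimidine tract, a run of C and T residues right at the transcription start, through which the mTOR pathway and the protein LARP1 control their translation and stability. Unassembled Rpl5 and Rpl11, bound to 5S ribosomal RNA, block Mdm2 and thereby raise p53. Platinum drugs and other DNA-damaging agents can disturb ribosomal RNA synthesis.

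The start sites of 10 members that passed both thresholds in 1 comparison or another with cotreatment are shown because the pyrimidine run is the shared sequence feature of the family. Each line holds 40 bases before and 20 bases from the annotated RefSeq start, 5′ to 3′ on the strand of the gene. Capitals mark the longest run of C and T counted from within 5 bases of that start. Bases of a run that lie further upstream, as in Rpl7a, were not counted and stay in lower case.
Rpl13a: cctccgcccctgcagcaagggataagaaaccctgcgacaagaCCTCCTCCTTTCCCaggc
Rpl31: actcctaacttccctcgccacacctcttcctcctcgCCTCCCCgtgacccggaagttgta
Rpl15: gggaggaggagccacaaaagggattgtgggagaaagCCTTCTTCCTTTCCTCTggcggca
Rps10: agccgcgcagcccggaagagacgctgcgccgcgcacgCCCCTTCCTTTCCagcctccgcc
Rps23: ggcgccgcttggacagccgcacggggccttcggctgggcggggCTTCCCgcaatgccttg
Rpl27a: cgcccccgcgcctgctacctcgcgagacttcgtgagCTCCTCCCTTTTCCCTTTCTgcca
Rpsa: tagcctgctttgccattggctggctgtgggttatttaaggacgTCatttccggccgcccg
Rpl12: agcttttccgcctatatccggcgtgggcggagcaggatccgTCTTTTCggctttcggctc
Rpl7a: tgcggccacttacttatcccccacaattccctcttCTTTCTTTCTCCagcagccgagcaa
Rpl5: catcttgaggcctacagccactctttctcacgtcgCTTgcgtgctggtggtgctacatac

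In GRCm38.p6 these windows lie at chr7:45128726-45128785 (minus strand) for Rpl13a, chr1:39367811-39367870 (plus) for Rpl31, chr14:18270967-18271026 (minus) for Rpl15, chr17:27635225-27635284 (minus) for Rps10 and chr13:90923082-90923141 (plus) for Rps23. Those of Rpl27a (chr7:109519155-109519214), Rpsa (chr9:120127726-120127785), Rpl12 (chr2:32961672-32961731), Rpl7a (chr2:26910767-26910826) and Rpl5 (chr5:107900488-107900547) lie on the plus strand. Capital runs were 20 bases long in Rpl27a, 17 in Rpl15, 14 in Rpl13a, 13 in Rps10 and, without its upstream bases, 12 in Rpl7a, and only 3 in Rpl5 and 2 in Rpsa at the starts that RefSeq gives.

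A window was given for 55 of the 75 members and for 16558 genes in all. A C followed by at least 4 C or T bases began within 5 bases of the start in 25 member windows (45.5%) and in 19.6% of all windows. Runs of at least 10 C or T bases, counted in the same way, were found at 21.8% of member starts and 2.81% of all starts. In the 300-base window, from 250 bases before the start, the letters CCGGAAG on either strand, the core of ETS family motifs, were in 38.2% of members and 13.2% of all genes. CACGTG, the E-box bound by Myc, was in 9.09% and 8.58%, and TATAAA, the TATA box, was in 9.09% and 10.2%. None of these 3 motifs contains another. A match says only that the letters are present.

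The 75 members together held 1.72% to 2.45% of all reads of a tumor. Their levels in the table were far from equal. Rpl4 had a mean of 1490 CPM per kb of exon, followed by Rps15 (968) and Rplp1 (959), whereas Rps27 had 1.58, Rpl24 1.61 and Rps6 1.88. Rpl4 alone took 14.7% of the member reads and the top 10 members took 59%. The study counted only reads that aligned to 1 place, and ribosomal protein genes have many processed pseudogenes. Of the 50-base stretches of the main transcript, a median of 50.7% over the members was found in no other annotated gene. At the low end were Rps27 with 1.35%, Rpl35 with 4.91% and Rpl5 with 6.16%. Stretches shared with another gene that overlaps the member at the same place also counted as not unique. How far the level of a member depended on its unique stretches was not tested. The order of the members was not read as an order of expression.

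**Figure D1:**
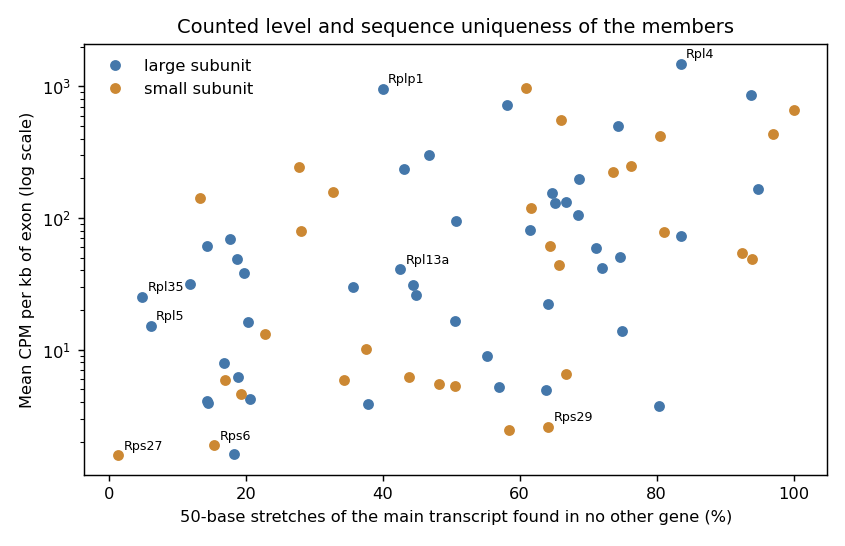
Mean CPM per kb of exon over the 20 tumors (log axis) against the share of 50-base stretches of the main transcript that no other gene holds, 1 point per member. The lowest levels (Rps27, Rpl24, Rps6) are at members with few unique stretches and the highest (Rpl4) is at 83.5% unique, but Rps29 is low at 64.2%.

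Cotreatment was the treatment under which most members lay lower. The mean over the members of the log2 CPM, set to the vehicle mean, was -0.04 to 0.05 in vehicle tumors and -0.12 to 0.09 after KW6002. It was -0.13, -0.17, -0.002, 0.20 and 0.11 in cisplatin tumors 1 to 5, and -0.23, -0.26, -0.25, -0.06 and -0.04 in cotreated tumors 1 to 5. Cisplatin tumors thus lay on both sides of the vehicle tumors, and 3 of 5 cotreated tumors lay below every other tumor. In cotreated tumors 1 to 3, 50 to 53 of the 75 members (66.7% to 70.7%) were below every vehicle tumor, beside 27.7% to 31.4% of all genes tested. In cotreated tumors 4 and 5 it was 20 and 18 members (26.7% and 24%), beside 26.3% and 29.6% of all genes. The count was 35 and 42 in cisplatin tumors 1 and 2 (46.7% and 56%, beside 23% and 25% of all genes) and 18, 8 and 9 in cisplatin tumors 3 to 5 (24%, 10.7% and 12%, beside 27% to 31.4%). In KW6002 tumors it was 4 to 27 (5.33% to 36%), beside 11.4% to 16.6% of all genes. As a share of all reads, the members made up 2.08% ± 0.065 in vehicle, 2.06% ± 0.133 in KW6002, 2.11% ± 0.266 after cisplatin and 1.87% ± 0.179 after cotreatment (SD, n = 5 each). All groups overlapped.

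The split within the arms that held cisplatin ran with the library codes in the labels. The codes fall into a lower and a higher range, and cisplatin tumors 1 and 2 and cotreated tumors 1 to 3 are in the lower range with vehicle tumor 1 and KW6002 tumors 1 and 2. The labels do not say what the codes stand for. In the lower range the member share was 1.88% ± 0.0354 after cisplatin (n = 2) and 1.74% ± 0.0265 after cotreatment (n = 3), and in the higher range 2.27% ± 0.216 (n = 3) and 2.06% ± 0.0566 (n = 2). The vehicle tumor of the lower range had 2.1%, within the 2.01% to 2.17% of the other vehicle tumors. Within the higher range alone, the median member fold change of cotreatment against vehicle was -0.01 on the log2 scale instead of -0.15, and against KW6002 it was -0.04 instead of -0.15. Against cisplatin it was -0.13 in the higher and -0.11 in the lower range, beside -0.17 with both.

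**Figure D2:**
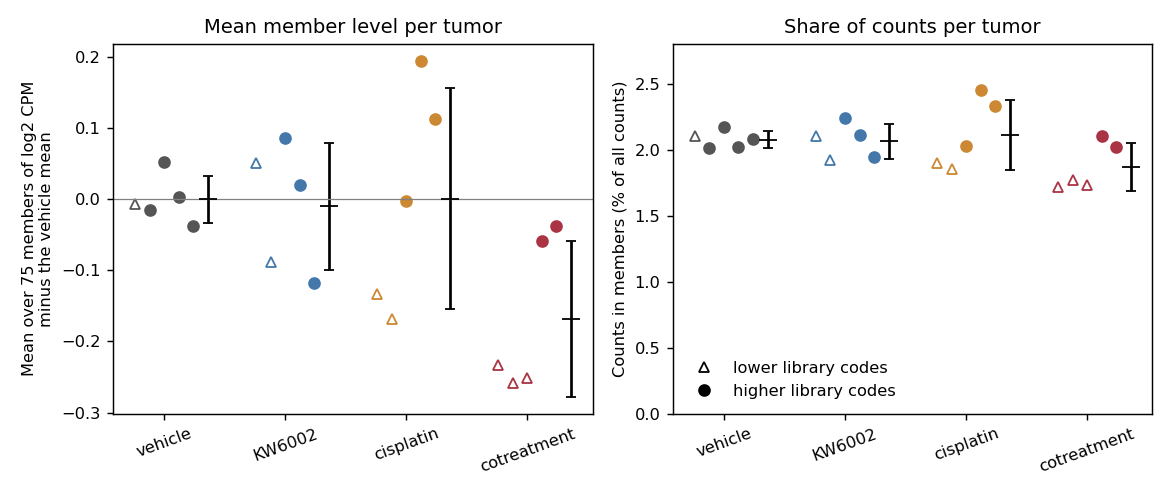
Mean over the 75 members of log2 CPM minus the vehicle mean (left) and share of all reads in the members in percent (right), 1 symbol per tumor, with open triangles for the lower and filled circles for the higher library codes and bars for the mean ± SD of 5 tumors. The 3 cotreated tumors with lower codes, at -0.23 to -0.26, lie below all others.

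To ask what each treatment changed gene by gene, all 16665 genes were tested with edgeR's quasi-likelihood test, and a gene was called when its Benjamini-Hochberg adjusted P was under 0.05 and its log2 fold change was at least 0.32 in size. KW6002 alone changed no member, as it changed 0% of all genes. No member reached an unadjusted P under 0.05 either, against 2.03% of all genes, and DESeq2 called none. Member fold changes lay between -0.18 (Rps27) and 0.18 (Rpl24) on the log2 scale with a median of -0.005, beside -0.003 for all genes, and 40 of 75 were negative (53.3%, beside 51.8%).

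Cisplatin alone lowered 3 of 75 members (4%) and raised none, beside 10.6% of all genes called in either direction and 4.57% called lower. The median member fold change was -0.003, beside 0 for all genes, and 39 of 75 were negative (52%, beside 49.9%). In 3 members (Rpl13a, Rpl15 and Rpl31) every cisplatin tumor was below every vehicle tumor, as in 5.12% of all genes. In the higher library codes alone, 3 members were lower (Rpl13a, Rpl15 and Rps23) and 4 were higher after cisplatin (among them Rpl10a, Rps19 and Rps28), beside 15.9% of all genes called in either direction. Cotreatment lowered 9 members (12%) and raised none relative to vehicle, beside 23.5% of all genes called in either direction and 10.4% called lower. Here the median was -0.15, beside -0.02 for all genes, and 67 of 75 fold changes were negative, against 52.2% of all genes. With no limit on the fold change, 24 members (32%) were lower and 1 was higher, against 17.7% of all genes in each direction. These 25 became 13 to 16 without any 1 of vehicle tumors 1 to 3 and cotreated tumors 1 to 3, 14 with no filter on low counts and 40 once length and GC content were offset. By the same rule 5906 of 16665 genes passed in all, 4860 to 5532 in those omissions, 5022 of 35226 with no filter and 6746 of 16665 with the offset. Of the 24 lower members, 15 had a log2 fold change closer to 0 than -0.32, and the 9 called members reached down to -0.86 (Rpl13a).

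Relative to cisplatin, cotreatment lowered 2 members (2.67%), beside 4% of all genes called and 1.71% called lower. The median was -0.17, beside -0.006 for all genes, and 71 of 75 were negative (94.7%, beside 51.2%). In 1 member, Rpl13a, the groups did not overlap, with cotreatment lower, as in 2.5% of all genes. Relative to KW6002, cotreatment lowered 10 members (13.3%) and raised 1, beside 23.3% of all genes called, 10.7% lower and 12.6% higher. The median was -0.15, beside -0.01, and 63 of 75 were negative (84%, beside 51.8%). In 13 members (17.3%) the cotreated tumors were all below the KW6002 tumors, beside 12.7% of all genes. Cotreatment and cisplatin were each set against the same vehicle tumors, so their fold changes share that error.

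Whether KW6002 acted differently with and without cisplatin was asked by the interaction. No member passed with edgeR, where 0.066% of all genes did, or with DESeq2, where 0.747% did. With limma voom 1 of 75 members passed, Rpl10a, and 1.75% of all genes. At an unadjusted P under 0.05 stood 10 members (13.3%), beside 12.2% of all genes, and 69 of 75 values were negative (92%, beside 50.8%). The smallest P among these was that of Rpl10a, the protein of the L1 stalk, with an interaction of -0.35 ± 0.11 (SE) and an adjusted P of 0.171 by edgeR.

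**Figure D3:**
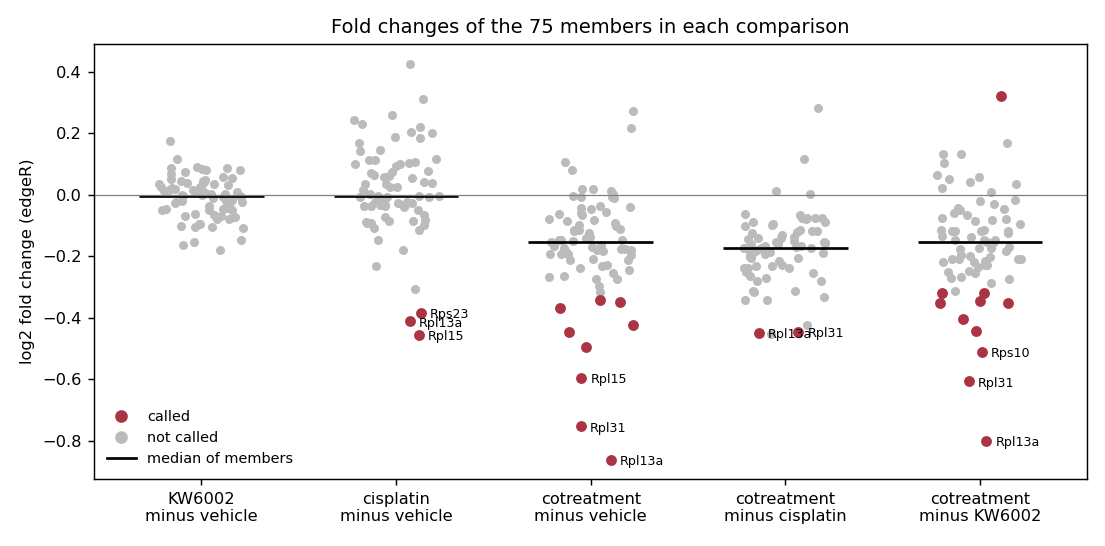
Log2 fold changes from edgeR of the 75 members in 5 comparisons, 1 point per member, with called members in red, the others in grey and the median of the members as a black bar. The median is near 0 for KW6002 and cisplatin alone and between -0.15 and -0.17 in the 3 comparisons of cotreatment.

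Among the large subunit members, Rpl13a changed most after cotreatment. It encodes a surface protein of the 60S subunit that also serves in the GAIT complex, which silences inflammatory mRNAs, and its gene hosts several small nucleolar RNAs in its introns (ENSMUSG00000074129, chr7:45125558-45128761, minus strand). Its CPM was 106, 105, 98.1, 110 and 110 in vehicle tumors 1 to 5 and 94.6 to 111 in KW6002 tumors. Cisplatin tumors had 83.6, 77.2, 75.7, 81.9 and 79.7, and cotreated tumors 52.9, 46.9, 51.4, 75.2 and 65.2. Every cisplatin tumor was below every vehicle tumor, and every cotreated tumor was below every cisplatin tumor. Group means were 106 ± 4.88, 101 ± 6.48, 79.6 ± 3.26 and 58.3 ± 11.6 (SD, n = 5).

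The log2 fold change of Rpl13a against vehicle was -0.41 ± 0.09 (SE) after cisplatin (edgeR adjusted P = 0.00399) and -0.86 ± 0.09 after cotreatment (edgeR adjusted P = 9.54e-07). Cotreatment differed from cisplatin by -0.45 (edgeR adjusted P = 0.0067). That difference was -0.68 in the lower and -0.17 in the higher range of library codes, and in the latter edgeR gave an adjusted P of 0.425. Its 2 differences from vehicle stayed called in the higher range alone, at -0.40 and -0.57. The interaction was -0.39 ± 0.13 with an edgeR adjusted P of 0.205.

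Rpl31, a protein near the exit of the peptide tunnel, followed the same order. Its CPM was 49.8, 52.2, 48.5, 58 and 52.4 in vehicle tumors and 49.7, 43, 49.5, 45.1 and 48.5 after KW6002. It was 40.9, 37.8, 40.7, 46.6 and 45.1 after cisplatin and 24.9, 25.3, 25.7, 40.2 and 38.7 after cotreatment. Both arms with cisplatin lay below all vehicle tumors, and the 3 cotreated tumors with lower codes lay well apart from the other two. Against vehicle the log2 fold change was -0.75 ± 0.12 (SE) after cotreatment (edgeR adjusted P = 5.57e-05), while after cisplatin it was -0.31 with an edgeR adjusted P of 0.074. Cotreatment differed from cisplatin by -0.45 (edgeR adjusted P = 0.0264), a call lost without any 1 of cisplatin tumors 3, 4 and 5 or cotreated tumors 1, 2 and 3 (adjusted P up to 0.092). By code range that difference was -0.64 (lower) and -0.16 (higher).

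Rpl15, a large subunit protein needed for pre-60S maturation, was lower after cisplatin with or without KW6002. The CPM values were 35.2, 42.9, 39.5, 46.2 and 44.5 in vehicle tumors and 39.7, 36.3, 38.1, 35.6 and 37.7 in KW6002 tumors. After cisplatin they were 32.1, 25.6, 29.6, 31 and 33.7, and after cotreatment 28.5, 24.2, 25.3, 29.3 and 30.5. Neither arm overlapped the vehicle tumors, and the arms overlapped each other. The log2 fold changes against vehicle were -0.46 ± 0.08 (SE; edgeR adjusted P = 0.000821) and -0.60 ± 0.08 (edgeR adjusted P = 1.55e-05). Both stayed called within the higher code range, at -0.44 and -0.51.

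Rpl27a was the next of the large subunit members by size. Its CPM was 68.2 to 75.7 in vehicle and 61.8 to 69.9 in KW6002 tumors. Cisplatin tumors had 57.2, 51.6, 54.2, 67.8 and 69.6, and cotreated tumors 46.1, 47.5, 49, 61.3 and 59.3, all below the lowest vehicle tumor. Its fold change after cotreatment was -0.42 ± 0.09 (SE) against vehicle (edgeR adjusted P = 0.000745) and -0.21 in the higher code range, where it was not called.

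Rpl12, which sits at the base of the P stalk, changed by -0.35 ± 0.08 (SE) relative to vehicle (edgeR adjusted P = 0.00148), from 63.6 ± 5.98 to 49.9 ± 5.5 CPM (SD, n = 5). Rpl7a, another 60S protein, changed by -0.34 ± 0.10 (edgeR adjusted P = 0.00938), from 93.4 ± 9.91 to 73.7 ± 11.2 CPM. For both the cotreated and vehicle tumors overlapped. Without any 1 of vehicle tumors 1 and 4 or cotreated tumors 2 and 3 Rpl12 fell short of the fold limit, the value nearest 0 being -0.30. Rpl7a lost its call without any 1 of 7 tumors, with values of -0.28 to -0.43 over all 20 omissions. In the higher code range the values were -0.15 and -0.12, neither called.

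**Figure D4:**
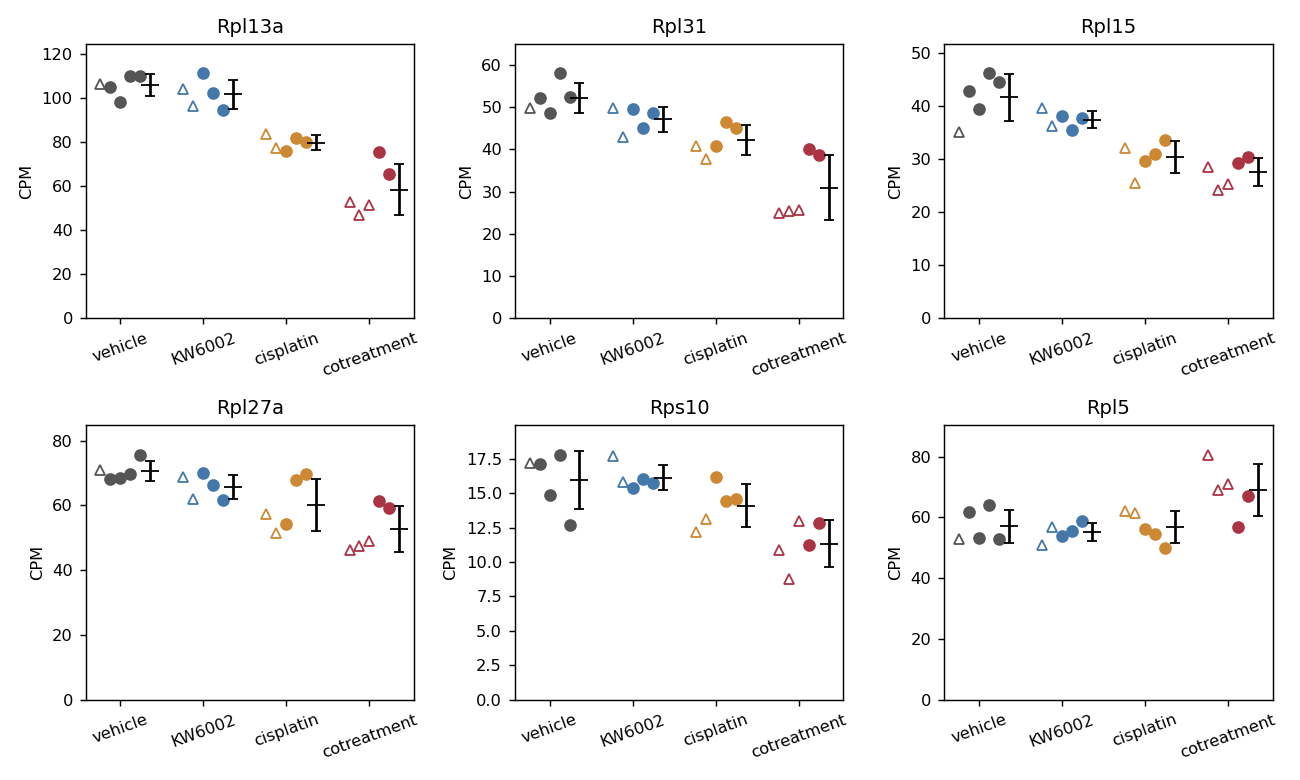
CPM of 6 members in each tumor, with open triangles for the lower and filled circles for the higher library codes and bars for the mean ± SD of 5 tumors. Rpl13a falls from 106 in vehicle to 79.6 after cisplatin and 58.3 after cotreatment, and Rpl5 is highest in cotreated tumors at 69.

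Rpl5 and Rpl11 enter the ribosome together with 5S ribosomal RNA, and their values differed in direction. Rpl5 had 53, 61.9, 53.3, 64.2 and 52.9 CPM in vehicle tumors and 51, 56.7, 53.8, 55.6 and 58.8 after KW6002. It had 62.1, 61.6, 56.1, 54.5 and 49.8 CPM after cisplatin and 80.7, 69, 71.1, 56.8 and 67.2 after cotreatment. Of the cotreated tumors, 4 lay above every other tumor and tumor 4 lay within the vehicle range. Rpl5 was the only member higher than in KW6002 tumors by both thresholds, at 0.32 ± 0.08 (SE; edgeR adjusted P = 0.0045). That call was lost without any 1 of KW6002 tumor 1 and cotreated tumors 1 and 3, with values of 0.26 to 0.39 over the omissions. It was also lost in 6 of 15 other settings, among them the replicate block (just short of the fold limit), the library code as a term (0.30) and the higher codes alone (0.16). Relative to vehicle it was 0.27 (edgeR adjusted P = 0.0132), under the fold limit, and 0.12 in the higher code range (adjusted P = 0.457).

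Rpl11 had 10.4 ± 0.744 CPM in vehicle and 9.4 ± 1.15 CPM after cotreatment (SD, n = 5), which differ by -0.15 on the log2 scale (edgeR adjusted P = 0.274). Exons of Rpl5 overlap those of Fam69a on the other strand, and only 6.16% of the 50-base stretches of Rpl5 are unique. Mdm2, the ubiquitin ligase that this particle binds, had 161 ± 12.9 CPM in vehicle and 153 in KW6002 tumors. It was higher after cisplatin and after cotreatment, at 260 and 261 CPM, with log2 fold changes of 0.69 (edgeR adjusted P = 2.61e-05) and 0.70 (edgeR adjusted P = 4.45e-06).

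Rplp0, Rplp1 and Rplp2 form the stalk that recruits elongation factors. Rplp0 had 1210 ± 71 CPM in vehicle and 1130 ± 120 CPM in cotreated tumors (SD, n = 5), a difference of -0.10 (edgeR adjusted P = 0.396). Rplp1 had 485, 431, 620, 261 and 391 CPM in vehicle tumors, 405, 320, 563, 941 and 709 after cisplatin, and 381, 473, 328, 595 and 410 after cotreatment. It spanned more than a doubling within each of these groups but cotreatment. Its fold change after cisplatin, the highest of all members at 0.43 ± 0.27 (SE), had an edgeR adjusted P of 0.293, followed by Rpl36 (0.31, adjusted P = 0.501) and Rplp2 (0.26, adjusted P = 0.367). None of these differences was larger than the spread between tumors.

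The standard deviation of log2 CPM within groups had a median of 0.15 over the members, beside 0.18 over all genes tested and 0.14 over those with a mean of at least 50 reads. It was over 0.25 in 7 members, namely Rpl36 (0.50), Rpl29 (0.45), Rplp1 (0.44), Rps21 (0.38), Rps27 (0.37), Rplp2 (0.31) and Rps26 (0.30). Apart from Rps27, the member with the fewest reads, these members had many of their extremes in the same tumors. All 6 were highest in vehicle tumor 3 of the vehicle group and in cisplatin tumor 4 of the cisplatin group, and all 6 were lowest in KW6002 tumor 5 and cisplatin tumor 2 of their groups. The other extremes were divided, with 4 of the 6 lowest in vehicle tumor 4, 4 highest in KW6002 tumor 3, 4 lowest in cotreated tumor 1 and 5 highest in cotreated tumor 4. One principal component held 58% of the within-group variance of all members, and the next held 11.6%. The SD of Rpl3 and Rpl4 was 0.09 each.

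**Figure D5:**
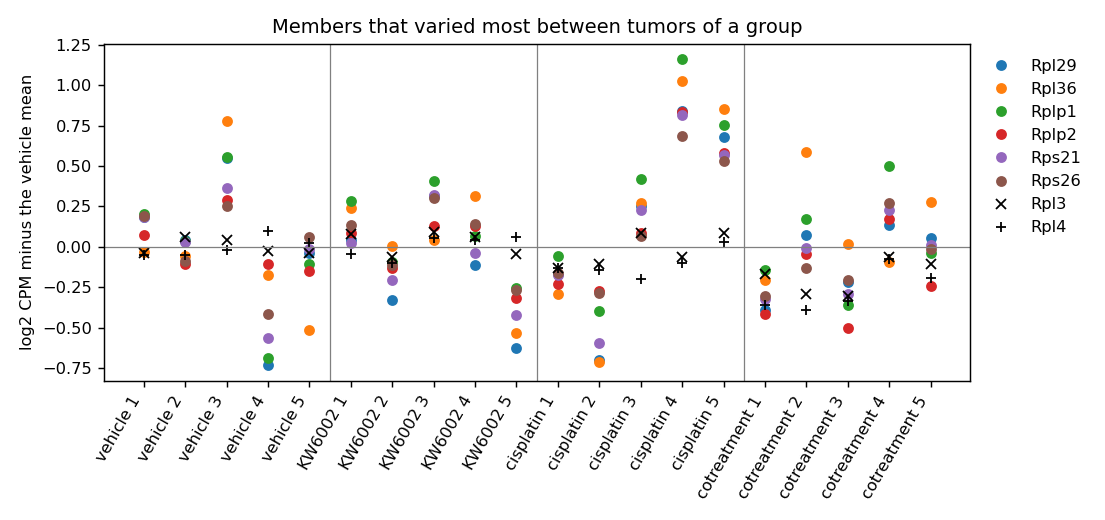
Log2 CPM minus the vehicle mean in each of the 20 tumors for the 6 members that varied most apart from Rps27 (colored points) and for Rpl3 and Rpl4 (black). In cisplatin tumor 4 all 6 colored members are at 0.69 to 1.16, and in cisplatin tumor 2 at -0.71 to -0.27.

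In the small subunit, Rps10, a protein of the 40S head, had 17.2, 17.1, 14.9, 17.8 and 12.7 CPM in vehicle tumors and 17.7, 15.8, 15.4, 16 and 15.7 after KW6002. It had 12.2, 13.1, 16.2, 14.4 and 14.6 CPM after cisplatin and 10.9, 8.73, 13, 11.2 and 12.8 after cotreatment. Cotreated tumors lay below all KW6002 tumors and overlapped the vehicle group only through vehicle tumor 5. The fold change against vehicle was -0.49 ± 0.11 (SE; edgeR adjusted P = 0.00115), and in the higher code range -0.36 with an edgeR adjusted P of 0.0739.

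Rps23, which lines the decoding center, was lower in both arms with cisplatin. It had 6.56, 8.51, 7.51, 9 and 8.64 CPM in vehicle tumors, 6.73, 5.33, 7.41, 5.24 and 6.12 after cisplatin, and 5.36, 5.46, 5.76, 6.8 and 6.15 after cotreatment. Vehicle tumor 1 overlapped both arms. The fold change was -0.38 ± 0.11 (SE) after cisplatin (edgeR adjusted P = 0.0178), a call lost without vehicle tumor 4, vehicle tumor 5 or cisplatin tumor 4 (adjusted P up to 0.0625) and in 4 of 14 other settings (adjusted P up to 0.173). After cotreatment it was -0.45 ± 0.11 (edgeR adjusted P = 0.00276), and in the higher code range -0.36 with an edgeR adjusted P of 0.114.

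Rpsa, a 40S protein also known as the laminin receptor, had 22.5 ± 2.01 CPM in vehicle and 17.4 ± 1.46 CPM in cotreated tumors (SD, n = 5). The groups did not overlap, and the fold change was -0.37 ± 0.10 (SE; edgeR adjusted P = 0.00794). The call was lost without vehicle tumor 3, where the value fell just short of the fold limit, and in the higher code range, where it was -0.28 with an edgeR adjusted P of 0.137.

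Members with the most reads moved by less than the fold limit and with small errors. Rps3, at the mRNA entry of the 40S subunit, had 2050 ± 124 CPM in vehicle and 1710 ± 164 CPM in cotreated tumors (SD, n = 5), which did not overlap (-0.27 ± 0.07, SE; edgeR adjusted P = 0.00365). Rpl4, which lines the peptide tunnel, went from 3180 ± 140 to 2650 ± 251 CPM, also without overlap (-0.27 ± 0.06, SE; edgeR adjusted P = 0.00241). Rpl22, an RNA-binding 60S protein, went from 506 ± 11.7 to 432 ± 45 CPM (edgeR adjusted P = 0.0215), and Rps15 from 655 ± 60.8 to 542 ± 53.4 CPM (edgeR adjusted P = 0.0326). In the higher code range the adjusted P of these 4 was 0.302 to 0.662. In all, 11 members had cotreated tumors that were all below the vehicle tumors (14.7%, beside 12.4% of all genes).

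Other members had values that did not pass the thresholds. Rps6, the substrate of S6 kinase, had 2.93 ± 0.345 CPM in vehicle and 2.65 ± 0.361 CPM in cotreated tumors (SD, n = 5), on a mean of 97.4 reads per tumor. Rps27a, made as a fusion with ubiquitin, had 19.8 ± 0.883 and 20 ± 1.21 CPM, and Rps19, mutated in Diamond-Blackfan anemia, had 283 ± 20.4 and 285 ± 34.1 CPM. Of the 4 members on the X chromosome, Rpl10 had 30.9 ± 3.92 and 36 ± 2.34 CPM (0.22, edgeR adjusted P = 0.0519), Rpl39 had 108 ± 7.85 and 95.9 ± 8.54, Rps4x had 396 ± 25.7 and 381 ± 40.9, and Rpl36a had 6.52 ± 0.812 and 6.49 ± 0.673. Rpl27 had 7.5 ± 0.77 and 8.07 ± 0.678 CPM, and the scarce Rps27 and Rpl24 had 1.69 ± 0.36 and 1.67 ± 0.435 CPM, and 1.57 ± 0.163 and 1.59 ± 0.237 CPM.

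Both subunits had members among those lowered. After cotreatment, 6 of 45 large and 3 of 30 small subunit members were called lower against vehicle, with medians of -0.17 and -0.15, beside 10.4% of all genes called lower. Among the 40 members with at least 50% unique stretches 4 were called and the median was -0.17, and among the other 35 members 5 were called and the median was -0.15. Of the 25 members with the pyrimidine pattern at the RefSeq start 8 were called lower (median -0.18), of the 30 without it 1 was (median -0.13), and of the 20 with no window none was (median -0.14). These counts are a description and were not tested.

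Of 4 other ribosomal protein genes that the symbol rule does not take, Rps3a1, Fau and Rack1 among them, none was called in any comparison. Rack1, the 40S scaffold, had the lowest edgeR adjusted P, 0.0323, at -0.22 after cotreatment against vehicle. Of 7 tested paralogs, 1 was called. Rps27l, a p53 target, had 77.8 ± 2.73 CPM in vehicle and 106 CPM in cisplatin tumors (0.44 ± 0.08, SE; edgeR adjusted P = 0.000949) and 89.3 CPM after cotreatment (0.20, edgeR adjusted P = 0.059). Rpl22l1 went from 91.2 ± 5.37 to 73.4 CPM after cotreatment (-0.31, edgeR adjusted P = 0.00101), and Rpl7l1 from 172 to 152 (-0.18, edgeR adjusted P = 0.0168), both within the fold limit. Rpl39l and Rpl36al had -0.91 and -0.02, with edgeR adjusted P of 0.24 and 0.901.

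Genes that work with the ribosomal proteins were listed with earlier results of these data known. Their counts stand beside 23.5% of all genes called after cotreatment (10.4% lower, median -0.02) and 10.6% after cisplatin (4.57% lower, median 0). Among 28 translation factor and other oligopyrimidine genes, cotreatment lowered 7 and raised 1 against vehicle (median -0.21), and cisplatin changed none (median -0.09). The 7 included Npm1, a nucleolar assembly factor (-0.36, edgeR adjusted P = 0.000249), and Pabpc1, the poly(A)-binding protein (-0.37, edgeR adjusted P = 0.00023), and the 1 was Tpt1 (0.37, edgeR adjusted P = 0.00161). Eef1a1 and Eef2, the elongation factors, had -0.15 and -0.25 (edgeR adjusted P = 0.0369 and 0.0666).

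In the list of ribosomal RNA synthesis and ribosome assembly, 10 of 37 genes were lower after cotreatment and none higher (median -0.24), and 1 was lower after cisplatin (median -0.06). Its polymerase I genes Polr1a and Rrn3 had -0.06 and -0.14 after cotreatment (edgeR adjusted P = 0.435 and 0.102). Of 77 tested mitochondrial ribosomal protein genes, cotreatment lowered 2 and raised 1 (median -0.11), and cisplatin changed none (median 0.05). Of 22 tested genes that control ribosomal protein synthesis, cotreatment raised 5 and lowered 2 (median 0.06), and cisplatin raised 1 and lowered none (median 0.02). The genes of this list named here do not include the 5 that were raised. Myc, which drives ribosome production, went from 350 ± 52.6 to 249 CPM (-0.49, edgeR adjusted P = 0.0117). Larp1 had -0.26 (edgeR adjusted P = 0.00127), Rps6kb1 -0.12 (edgeR adjusted P = 0.237) and Eif4ebp1 0.18 (edgeR adjusted P = 0.285). In the list of p53 and ribosomal stress, 4 of 9 genes were higher and 1 was lower after cotreatment, and 3 were higher and none lower after cisplatin, each against vehicle.

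Markers of growth and of other cells also differed between these groups, and their part in the member levels was not tested. The summed level of 5 proliferation markers was 1170 to 1390 CPM in vehicle, 1050 to 1310 in KW6002, 1100 to 1260 in cisplatin and 879 to 1110 in cotreated tumors, and 4 of the 5 were lower after cotreatment. Of 5 endothelial markers, 5 were lower after cisplatin and 4 after cotreatment, from 117 to 176 CPM in vehicle tumors to 55.5 to 76.8 and 57.7 to 89.5 CPM. All 5 red blood cell markers were lower in both arms, from 25.9 to 117 CPM in vehicle to at most 0.0613 and 0.11 CPM, with Hbb-bt at 0 in both. Of 4 tested neutrophil markers 3 were lower after cotreatment, and the summed level went from 41.6 to 114 CPM in vehicle to 12.7 to 30 CPM. Of 7 T and NK cell markers 5 were lower after cotreatment than after KW6002, but 0 were called against vehicle or against cisplatin. Their sums were low, at 2.83 to 5.74 CPM after cotreatment and 2.31 to 8.89 CPM in vehicle tumors. In KW6002 tumors they were 4.22 to 25.4 CPM with a median of 7.63. Of 4 tested lung epithelium and carcinoma markers 1 was called, Krt8, which was higher than vehicle after cisplatin and cotreatment, at 185 and 191 CPM (edgeR adjusted P = 0.000288 and 3.12e-05). Krt18 was higher by less than the fold limit, at 0.316 after cisplatin (edgeR adjusted P = 0.00398) and 0.213 after cotreatment (edgeR adjusted P = 0.021). After cotreatment Krt19 had -0.08 (edgeR adjusted P = 0.888) and Cdh1 0.18 (edgeR adjusted P = 0.673). Sums of 6 skeletal muscle markers were 4.7 to 56.5 CPM in vehicle, 4.1 to 227 in KW6002, 3.58 to 244 in cisplatin and 3.59 to 1030 in cotreated tumors. Mitochondrial reads made up 1.35% ± 0.184 of all reads in vehicle, 1.61% ± 0.202 after cisplatin and 1.68% ± 0.154 after cotreatment (SD, n = 5 each). The sums of the 6 fibroblast markers overlapped between all groups, as did those of the 7 macrophage markers. Against vehicle, 2 fibroblast markers were lower after cisplatin and 1 after cotreatment, 1 macrophage marker was higher after cisplatin, and after cotreatment 1 was higher and 1 lower.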

How the data were processed

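The deposited table held raw counts, whole numbers of reads per gene and tumor. According to the authors' methods, stranded poly(A) libraries were sequenced as single 50-base reads, aligned to mm10 with STAR, kept where uniquely aligned and counted with HTSeq-count (version 0.6.1p1 per the labels) in union mode. The strand option was not given in the sources used here. No count column was left unused.

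From these counts, genes were filtered with filterByExpr, scaled by TMM and fitted over all 20 tumors with 4 group means in edgeR 4.0.16 (quasi-likelihood, robust, R 4.3.3). P values were two-sided and adjusted over 16665 genes. The thresholds are those the study used for tumors. CPM values use TMM-scaled totals, and log2 CPM has a prior count of 2. Named members were a fixed list, the 8 called each way with the smallest adjusted P in each comparison, and the extremes of fold change and level. Some genes covered by this rule are not reported here by name. Members and lists were chosen with earlier results of these data known. Stretches of 50 bases were looked up in all GENCODE M21 transcripts, both strands, and start windows came from RefSeq (GRCm38.p6). Counts of 16439 genes were also simulated, with the same spread set for every gene. For cotreatment against vehicle, 80.6% of log2 changes of 1, 34.3% of 0.5 and 0.0739% of unchanged genes were called. These shares do not give the power for the members, whose spread differs from gene to gene. Alternatives were DESeq2 1.42.0, limma 3.58.1 voom, other scalings and filters, a length and GC offset, library codes, the replicate block and omission of each tumor.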

Additional observations from a re-analysis of the deposited data

Results flagged for a closer look

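Within groups, 124 sets of 5 tumors (the member share of reads and 30 named members) were screened for a tumor far from the rest, by whether its gap to the nearest tumor exceeded 0.71 of the range of the group. Chance flags about 5% of sets, which is 6 here, and 9 were found. Rpl10 was highest in vehicle tumor 4 (37.9 CPM) and lowest in KW6002 tumor 3 (27.5 CPM) of their groups. Rpl22 was lowest in KW6002 tumor 2 (454 CPM), and Rpl24 in cotreated tumor 2 (1.18 CPM). Rpl36 was highest in vehicle tumor 3 (3.69 CPM). Rpl7a was highest in KW6002 tumor 3 (111 CPM) and in cotreated tumor 4 (93 CPM), so that the difference of the latter group from vehicle was larger without it. Rps10 was highest in KW6002 tumor 1 (17.7 CPM), and Rps3 in vehicle tumor 4 (2270 CPM).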

How the results depend on the processing

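The counts of members called in the 5 treatment comparisons were the same under DESeq2 except for cotreatment against KW6002, with 9 in place of 11. With no fold limit they rose to 25 for cotreatment against vehicle, 4 against cisplatin and 24 against KW6002. Those were 13 to 28, 1 to 8 and 17 to 26 with 1 tumor left out, and 40, 9 and 34 with the length and GC offset. Of all 16665 genes, 5906, 1086 and 5837 passed by that rule, and 6746, 1401 and 6529 with the offset. With 1 tumor left out, 4860 to 6171, 385 to 1560 and 4786 to 6142 genes passed. With limma voom the counts with the limit were 4 for cotreatment against cisplatin, beside 6.11% of all genes, and 1 for the interaction, beside 1.75%. A fit of only the tumors compared called 0 for cotreatment against cisplatin, beside 1.35% of all genes, where the main fit called 4%. In the higher library codes alone the counts were 7 for cisplatin against vehicle, 3, 0 and 1 for cotreatment against vehicle, cisplatin and KW6002, with fewer tumors and beside 15.9%, 12.8%, 0.00581% and 9.6% of all genes, and the medians of cotreatment were -0.010 against vehicle and -0.042 against KW6002. Vehicle had 1 tumor in the lower codes, so comparisons with it were not run in those codes alone. There cotreatment had 2 calls against cisplatin (beside 1.93% of all genes) and 14 against KW6002, 13 of them lower (beside 20.9%). With the code as a term the counts were 7 for cotreatment against vehicle, without Rpl12 and Rpl7a, and 8 against KW6002, without Rpl5, Rpl27a and Rpsa, beside 22.9% and 23.4% of all genes. Added after the data were seen, another fit had separate code terms with and without cisplatin. Its comparisons hold at the level of the lower codes, where vehicle had 1 tumor, and are not an average over both ranges. For cotreatment it gave 16 calls against vehicle and 18 against KW6002, beside 22.8% and 25.2% of all genes. Its median for cisplatin against vehicle was -0.11. Also added then, the 40 members with at least 50% unique stretches gave 1, 4, 0 and 4 calls for cisplatin against vehicle and cotreatment against vehicle, cisplatin and KW6002. These stand beside 10.6%, 23.5%, 4% and 23.3% of all genes. The cause was not tested.

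Leaving out 1 tumor at a time gave 0 calls for KW6002, 2 to 3 for cisplatin and 7 to 11 for cotreatment against vehicle. It gave 1 to 5 for cotreatment against cisplatin and 7 to 12 against KW6002. In the same order, 0%, 8.2% to 12.2%, 19.8% to 24.2%, 1.72% to 6.03% and 19.6% to 24.2% of all genes were called in these fits. The interaction had 0 to 1, the 1 being Rpl13a without cotreated tumor 4, where 1.36% of all genes were called. The lowest counts against cisplatin came without any 1 of cisplatin tumors 3, 4 and 5 and cotreated tumors 1, 2 and 3, and the highest without cisplatin tumor 2. Against KW6002, 7 were left without any 1 of KW6002 tumors 1 and 3 and cotreated tumors 1, 2 and 3. Same-numbered tumors did not vary together (12 of 30 pairs with a correlation over 0.1, median -0.0258). A replicate block gave 0, 3, 9, 2, 10 and 0 calls over the 6 comparisons, Rpl5 being the one lost against KW6002. With that block 0%, 9.66%, 22.6%, 3.5%, 22.6% and 0% of all genes were called. No called value of a named member turned its direction under any alternative. Depth limits Rps27, Rpl24, Rps29, Rpl36 and Rps6, which had under 100 reads per tumor on average.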
